A study of Homo sapiens with 12 samples.

Results

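The 10 genes described here belong to the endoglin, ALK1 and bone morphogenetic protein (BMP) pathway. They are the ligand BMP4, the receptors ENG (endoglin), ACVRL1 (ALK1) and BMPR2, the signal carriers SMAD1 and SMAD5, the inhibitor SMAD6, and the response genes ID1, ID2 and ID3. They were taken by gene symbol from an RNA sequencing table of 36433 symbols, and all 10 passed the filter of at least 1 TPM in at least 3 libraries that left 13750 genes for testing. TPM, the usual unit of transcript abundance, is a level corrected for transcript length and for the total of the library. All libraries come from 1 cell line, HMEC-1, which was made from the endothelium of small vessels of human skin and immortalised. Cells were collected 48 h after transfection, by lipid reagent, with 50 nM of a synthetic mimic of miR-126, of miR-143 or of miR-150, or of a scrambled RNA that targets no transcript, which is the control. Each of the 4 groups had 3 libraries, numbered 2 to 4. By its title the study concerned what these microRNAs do in pathological angiogenesis of the retina.

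BMPs are secreted dimers that bring together type I and type II receptor kinases, and the type I receptor then phosphorylates SMAD1, SMAD5 or SMAD9. These join SMAD4 and switch on genes such as ID1, ID2 and ID3, whose products block basic helix-loop-helix transcription factors. In endothelium the type I receptor is largely ALK1, the type II receptor is often BMPR2, and endoglin is a coreceptor that presents the circulating ligands BMP9 and BMP10. Loss of a copy of ENG or ACVRL1 causes hereditary haemorrhagic telangiectasia, and loss of a copy of BMPR2 causes heritable pulmonary arterial hypertension. A microRNA mimic adds copies of a mature microRNA, which can lower transcripts that pair with its seed, bases 2 to 8 from its 5' end.

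The labels do not say which arm of each hairpin the mimics carried. The mature arms miR-126-3p, miR-126-5p and miR-143-3p in RefSeq (GRCh38.p14) are shown because the search for sites in the 10 genes, given after the levels, starts from their seeds, which are in capitals. The 3 seeds differ from one another.
hsa-miR-126-3p: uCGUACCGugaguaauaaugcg
hsa-miR-126-5p: cAUUAUUAcuuuugguacgcg
hsa-miR-143-3p: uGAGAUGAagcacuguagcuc

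The libraries carried an endothelial profile. All 12 endothelial markers examined, among them PECAM1, CDH5 and TIE1, were at 1 TPM or more in all 12 libraries. Their summed level was 1446 to 2224 TPM with miR-126, 1926 to 2878 TPM with miR-143, 1739 to 2654 TPM with miR-150 and 1924 to 2823 TPM in the control. Of the leukocyte markers, CD3E and LYZ were below 1 TPM throughout, PTPRC was 0.471 to 1.55 TPM and CD14 was 1.22 to 2.86 TPM. Fibroblast and pericyte markers, of which 11 of 12 were in the table, summed to 60.3 to 82.9 TPM with miR-126, 46.6 to 65.5 TPM with miR-143, 41.7 to 53.5 TPM with miR-150 and 57.4 to 140.3 TPM in the control, with PDGFRA, DCN and LUM below 1 TPM throughout. Epithelial markers summed to 526 to 580 TPM with miR-126, 732 to 952 TPM with miR-143, 903 to 1027 TPM with miR-150 and 449 to 634 TPM in the control, and KRT18 and KRT8 made up nearly all of it while CDH1 stayed below 1 TPM. Lymphatic endothelial markers, of which PDPN was the highest, summed to 83.7 to 84.8 TPM with miR-126, 62.7 to 83.4 TPM with miR-143, 84.4 to 111 TPM with miR-150 and 137 to 147 TPM in the control. These sums differ between groups, and their part in the results below was not tested. In number 4 of miR-143 and number 4 of miR-150, short transcripts were favoured: the rank correlation of a gene's deviation with its transcript length was −0.40 and −0.55, against −0.0084 to 0.29 in the other 10 libraries.

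The genes differed widely in level. ENG averaged 329 TPM over the 12 libraries and ID3 291 TPM, followed by ACVRL1 at 118 TPM and ID1 at 109 TPM. BMPR2 (45.6 TPM), SMAD1 (43.6 TPM), SMAD5 (37.8 TPM) and BMP4 (33.2 TPM) were close together, with ranges that overlap. ID2 at 4.54 TPM and SMAD6 at 3.57 TPM were the lowest, and both were above 1 TPM in all 12 libraries. On the per-length scale of TPM, ENG and ID3 thus had the highest summed levels of the 10, and ACVRL1 was above BMPR2 in every library. The sums cover all annotated transcripts of a symbol, coding or not. Of the ID3 total, ID3-202, which is not annotated as protein-coding, held 27.6%, and protein-coding ID3-201 held 19.3%. Each has a copy with the same values under another Ensembl gene of that symbol. The second place of ID3 is thus one of the summed level and not of coding mRNA.

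**Figure D1:**
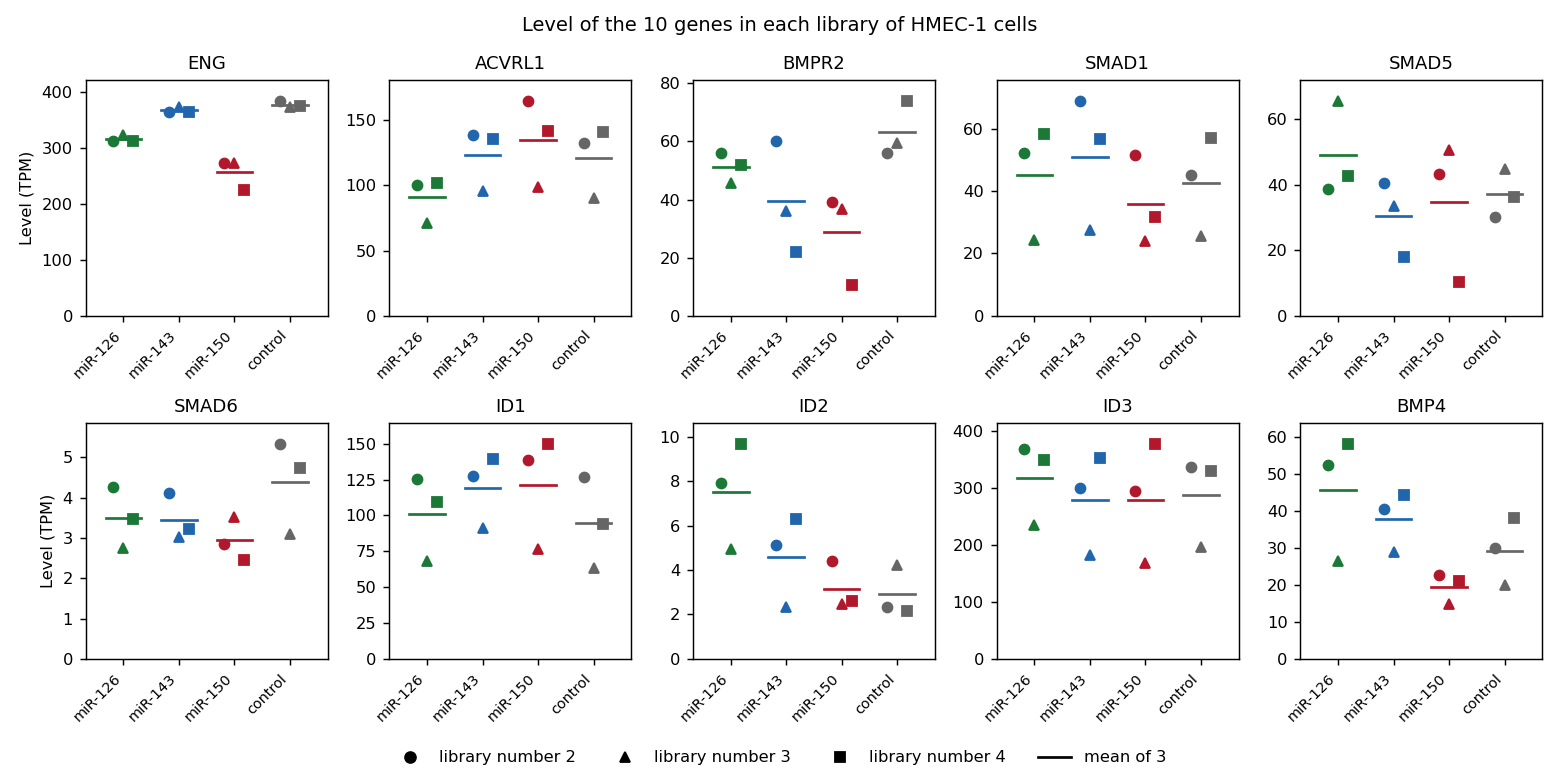
Level of each of the 10 genes in TPM (vertical axes, each starting at 0) in every library, with miR-126, miR-143, miR-150 and control from left to right, symbols for the library number and a line for the mean of 3. ENG is tight within miR-126, miR-143 and the control, and lowest with miR-150, where number 4 lies below numbers 2 and 3. BMP4 is highest with miR-126, and number 3 (triangles) is low in every group for ACVRL1, SMAD1, ID1 and ID3.

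Endoglin was the only member whose level differed from the control by the test across all genes, and only with miR-150. It was 273, 272 and 225 TPM in the miR-150 libraries numbered 2, 3 and 4, against 383, 372 and 374 TPM in the control libraries. All miR-150 libraries lay below all control libraries. ENG averaged 257 ± 27.5 TPM with miR-150 and 376 ± 5.70 TPM in the control (SD, n = 3 each), and on the log2(TPM + 1) scale it fell by 0.56 (SE 0.09, 95% interval −0.75 to −0.36, limma adjusted p = 0.0067). In bulk RNA, fewer cells of a type and less RNA per cell cannot be told apart. The call held in all 6 fits that left out 1 library of the comparison, with adjusted p up to 0.042, and with both libraries that favour short transcripts left out (−0.47, adjusted p = 0.0048). It was lost when each library was centred on its median gene (−0.43, adjusted p = 0.062), when the trend on transcript length was removed (−0.38, adjusted p = 0.056), and when the 6 libraries were fitted alone (−0.56, adjusted p = 0.14).

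With miR-126, ENG was 313, 322 and 312 TPM, again below all 3 control libraries. The difference of −0.25 (SE 0.09, 95% interval −0.45 to −0.06) missed the threshold with an adjusted p of 0.14. It passed when the replicate number was added as a block (adjusted p = 0.044). It also passed without both libraries that favour short transcripts (adjusted p = 0.021). Same-numbered libraries of these 2 groups deviated together. The block, however, fits a shared effect of each number to all 12 libraries, also in groups whose numbers pair less well. With the trend on transcript length removed, the miR-126 difference was −0.35 (adjusted p = 0.057), close to the −0.38 with miR-150 (adjusted p = 0.056). Neither passed there, so the contrast between these mimics depended on the scaling. With miR-143, ENG was 364, 372 and 364 TPM, and its highest value, 372.46 TPM, lay just under the lowest control value of 372.49 TPM. That difference was −0.04 (95% interval −0.23 to 0.16, adjusted p = 0.88). In TPM as deposited, the order of ENG levels was thus control, miR-143, miR-126 and miR-150 from high to low. None of these groups overlapped another, while control and miR-143 did not differ beyond their spread.

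Between the mimics, ENG was higher with miR-143 than with miR-150 by 0.52 (SE 0.09, 95% interval 0.32 to 0.72, adjusted p = 0.013). That call was lost without miR-143 number 4 (0.53, adjusted p = 0.053), when the libraries were centred on the median gene (0.44, adjusted p = 0.078) and in the 6 libraries alone (adjusted p = 0.27). ENG with miR-126 was 0.30 above miR-150 (adjusted p = 0.082, and 0.021 with the replicate block) and 0.22 below miR-143 (a difference of −0.22, adjusted p = 0.26, and 0.091 with the block). With the trend on transcript length removed, miR-126 differed from miR-150 by only 0.03 (adjusted p = 0.90), and from miR-143 by −0.39 (adjusted p = 0.053). The gap in ENG between miR-126 and miR-150 thus depended on that correction.

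ENG lies on the minus strand of chromosome 9 (GRCh38, chr9:127815012-127854756), and 3 protein-coding transcripts made up nearly all of its TPM. ENG-202, which encodes the full-length protein of 658 residues, held 45.1% of the ENG total, and ENG-204, whose annotated start lies downstream and whose protein has 476 residues, held 44.6%. ENG-201 encodes 625 residues, the form with the short cytoplasmic tail, and held 8.94%. The split of reads among transcripts that share most of their exons is an estimate by kallisto.

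ENG-202 was 156, 165 and 48.1 TPM with miR-150, against 163, 161 and 159 TPM in the control. Only number 4 of miR-150 stood low, and that library is among the pair that favours short transcripts. ENG-204 was 94.3, 80.3 and 157 TPM with miR-150, against 177, 166 and 180 TPM in the control. It was 117, 120 and 140 TPM with miR-126 and 159, 158 and 213 TPM with miR-143. ENG-204 thus lay below the control in all libraries of miR-126 and miR-150, whereas ENG-202 overlapped the control in both groups. ENG-201 was 25.0, 36.1 and 22.0 TPM with miR-126, 26.2, 48.5 and 29.02 TPM with miR-143, 18.8, 23.3 and 16.3 TPM with miR-150, and 38.2, 40.2 and 29.2 TPM in the control. It lay below all control libraries with miR-150 and overlapped them with miR-126 and miR-143. When ENG-202 alone stood for the gene, the miR-150 difference was −0.58 with an adjusted p of 0.44.

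**Figure D2:**
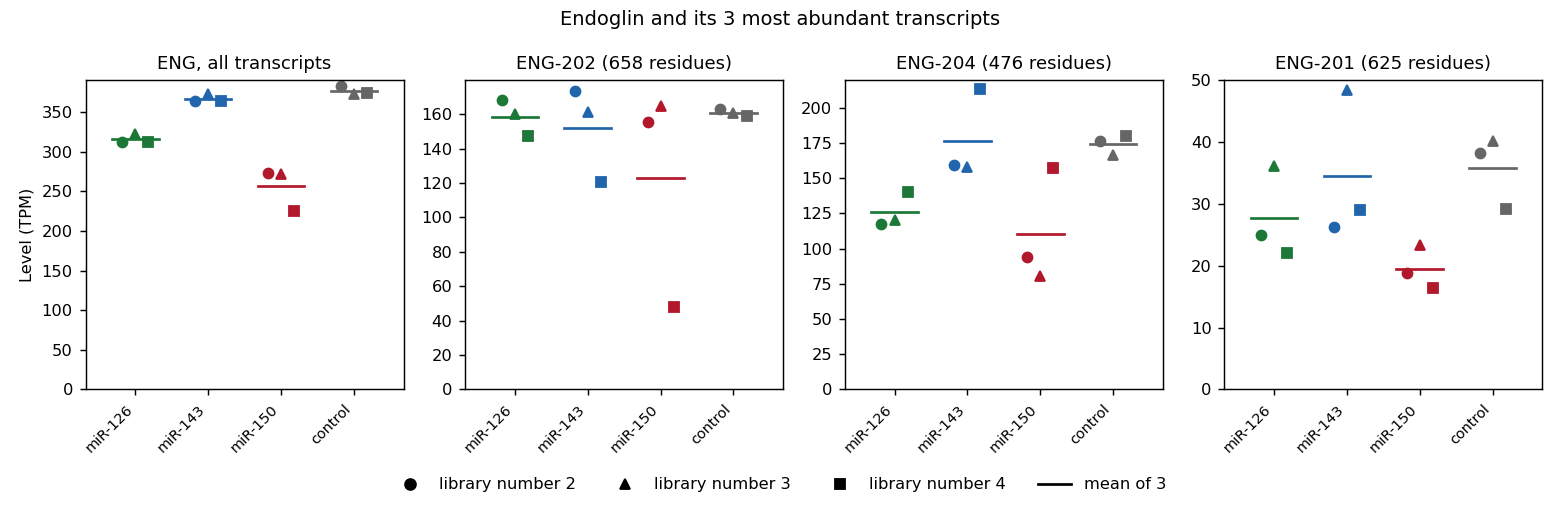
Levels in TPM of ENG (all transcripts) and of its 3 most abundant transcripts in every library, with miR-126, miR-143, miR-150 and control from left to right, symbols for the library number and a line for the mean of 3. ENG-204 lies below the control in every miR-126 and miR-150 library, and ENG-202 is lowest, at 48.1 TPM, in miR-150 number 4.

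ACVRL1 (chr12:51906908-51923361, plus strand) encodes ALK1, the type I receptor kinase of endothelium. It was 99.97, 70.9 and 102 TPM in miR-126 libraries 2, 3 and 4, 138, 95.8 and 136 TPM with miR-143, 165, 99.0 and 142 TPM with miR-150, and 133, 90.2 and 141 TPM in the control. The groups overlapped, because number 3 was the lowest library of every group. Within each number, miR-126 was the lowest of the 4 groups. The difference between miR-126 and the control was −0.41 (95% interval −0.93 to 0.11, adjusted p = 0.39) without the block and the same size with it (95% interval −0.58 to −0.23, adjusted p = 0.0072). With the block, ACVRL1 was also lower with miR-126 than with miR-143 (−0.44, adjusted p = 0.0078, and 0.40 without the block) and than with miR-150 (−0.56, adjusted p = 0.0021, and 0.20 without). Against the control, ACVRL1 differed by 0.03 with miR-143 (95% interval −0.49 to 0.55) and by 0.15 with miR-150 (95% interval −0.37 to 0.67), with adjusted p of 0.97 and 0.79.

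BMPR2 (chr2:202376936-202567751, plus strand) encodes the type II receptor, whose kinase activates the type I receptor. It was 56.0, 45.6 and 51.8 TPM with miR-126, 60.1, 36.0 and 21.9 TPM with miR-143, 39.3, 36.8 and 10.7 TPM with miR-150, and 56.0, 59.6 and 73.9 TPM in the control. All miR-150 libraries lay below all control libraries, and so did all miR-126 libraries, the highest of them at 56.00 TPM against a lowest control value of 56.02 TPM. The lowest values of miR-143 and miR-150 were in their number 4. The difference from the control was −1.29 with miR-150 (95% interval −2.25 to −0.32, adjusted p = 0.15), −0.77 with miR-143 (adjusted p = 0.42) and −0.29 with miR-126 (adjusted p = 0.79). BMPR2 has the longest transcripts of the 10, with 7411 bases on average, and both number 4 libraries favour short transcripts. Without those libraries the difference was −0.71 with miR-150 (adjusted p = 0.098) and −0.42 with miR-143 (adjusted p = 0.29). With the trend on transcript length removed, BMPR2 was lower with miR-150 by the test (−0.96, adjusted p = 0.020).

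BMPR2 was read mainly as a pair of transcripts. BMPR2-202, with 11461 bases, encodes the full receptor of 1038 residues and held 48.4% of the gene's TPM. BMPR2-204, with 3443 bases and a protein of 504 residues, held 49.4%. BMPR2-202 was 17.6, 18.4 and 5.19 TPM with miR-150, against 29.1, 28.8 and 34.2 TPM in the control, and BMPR2-204 was 21.5, 17.7 and 5.46 TPM, against 24.1, 29.7 and 38.8 TPM. Both transcripts were lower in all 3 miR-150 libraries than in all 3 control libraries, and both were lowest in miR-150 number 4.

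BMP4 (chr14:53949736-53958761, minus strand) encodes a secreted ligand, and BMP4 and BMP6 were the only ligands examined that passed the filter. It was 52.6, 26.6 and 58.1 TPM with miR-126, 40.5, 29.1 and 44.4 TPM with miR-143, 22.8, 14.8 and 21.2 TPM with miR-150, and 29.9, 20.0 and 38.1 TPM in the control. Number 3 was the lowest of each group, and within each number BMP4 was higher than the control with miR-126 and with miR-143 and lower with miR-150. Without the block no difference from the control passed: 0.59 with miR-126 (95% interval −0.09 to 1.28, adjusted p = 0.33), 0.39 with miR-143 (adjusted p = 0.60) and −0.53 with miR-150 (adjusted p = 0.42). With the block, BMP4 was higher with miR-126 than in the control (95% interval 0.30 to 0.89, adjusted p = 0.014). BMP4 with miR-126 and with miR-143 did not overlap BMP4 with miR-150, at differences of 1.13 and 0.92. Those differences had adjusted p of 0.068 and 0.19 without the block, and 0.00090 and 0.0034 with it. When number 3 of miR-126 was left out, the first of them was 1.47 with an adjusted p of 0.030.

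**Figure D3:**
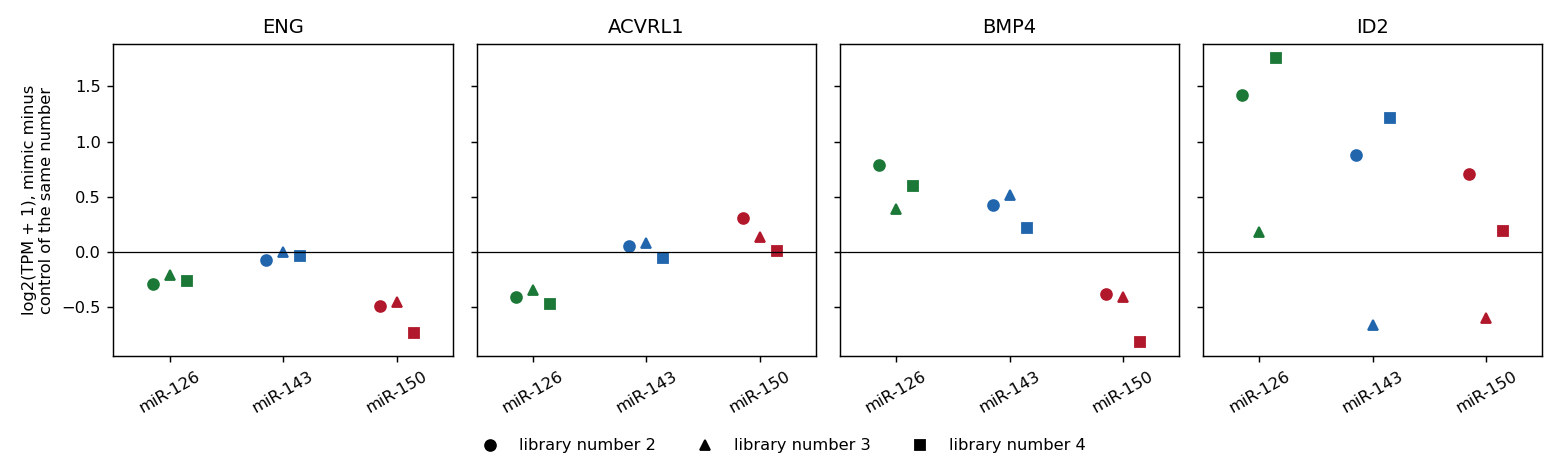
Difference in log2(TPM + 1) between each mimic library and the control library of the same number for ENG, ACVRL1, BMP4 and ID2, with symbols for the number and a line at 0. ACVRL1 lies below 0 only with miR-126 in all 3 numbers, and BMP4 lies above 0 with miR-126 and miR-143 and below 0 with miR-150 in all 3 numbers.

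SMAD1 (chr4:145481194-145558079, plus strand) and SMAD5 (chr5:136132845-136188747, plus strand) encode the receptor-activated carriers of the signal. SMAD1 was 52.2, 24.4 and 58.4 TPM with miR-126, 68.8, 27.4 and 56.7 TPM with miR-143, 51.6, 23.9 and 31.5 TPM with miR-150, and 45.1, 25.7 and 57.0 TPM in the control. Every group overlapped every other. The differences from the control were 0.06, 0.23 and −0.25 for miR-126, miR-143 and miR-150, with adjusted p of 0.97, 0.84 and 0.82 and 95% intervals that reach from −1.20 to 1.18 between them. SMAD5 was 38.7, 65.5 and 42.7 TPM with miR-126, 40.4, 33.5 and 17.8 TPM with miR-143, 43.2, 50.5 and 10.4 TPM with miR-150, and 30.1, 44.6 and 36.3 TPM in the control. Its lowest values were again in number 4 of miR-143 and of miR-150. The difference with miR-150 was −0.34 (adjusted p = 0.77) and became 0.35 without miR-150 number 4 (adjusted p = 0.71), so that library sets its sign. The differences with miR-126 and miR-143 were 0.37 and −0.33, with adjusted p of 0.76 and 0.80.

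SMAD6 (chr15:66702228-66782848, plus strand) encodes an inhibitory SMAD that BMP signalling itself induces. It was 4.27, 2.75 and 3.48 TPM with miR-126, 4.11, 3.03 and 3.22 TPM with miR-143, 2.86, 3.51 and 2.46 TPM with miR-150, and 5.33, 3.11 and 4.74 TPM in the control. All groups overlapped. Its differences from the control were −0.25, −0.26 and −0.43 for miR-126, miR-143 and miR-150, and none passed (adjusted p = 0.60, 0.62 and 0.35).

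The response genes ID1 and ID3 did not differ between groups beyond the spread of libraries. ID1 (chr20:31605283-31606515, plus strand) was 126, 68.5 and 109.6 TPM with miR-126, 127, 91.2 and 139 TPM with miR-143, 138, 76.6 and 149 TPM with miR-150, and 127, 63.2 and 94.2 TPM in the control. Number 3 was the lowest of each group, and miR-143 and miR-150 were above the control in all 3 numbers. The differences were 0.11, 0.36 and 0.35 for miR-126, miR-143 and miR-150, with adjusted p of 0.92, 0.63 and 0.61. ID3 (chr1:23557918-23559794, minus strand) was 368, 235 and 349 TPM with miR-126, 300.5, 183 and 353 TPM with miR-143, 294, 168 and 376 TPM with miR-150, and 337, 196 and 329.9 TPM in the control. Its differences were 0.15, −0.06 and −0.08, with adjusted p of 0.88, 0.96 and 0.94. The symbol ID3 covers 2 Ensembl genes with the same values, which are near-identical copies, and their TPM were summed.

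ID2 (chr2:8678845-8684453, plus strand) was the lowest of the ID genes in level. It was 7.92, 4.93 and 9.67 TPM with miR-126, 5.13, 2.32 and 6.31 TPM with miR-143, 4.42, 2.47 and 2.62 TPM with miR-150, and 2.32, 4.23 and 2.16 TPM in the control. On the summed level all miR-126 libraries lay above all control and all miR-150 libraries, and the nearest control value was number 3. A transcript with a retained intron, not annotated as protein-coding, held 25.2% of the ID2 total. It supplied 3.08 of the 4.93 TPM in miR-126 number 3, and 2.45 of the 4.23 TPM in control number 3. The most abundant protein-coding transcript was 4.05, 1.85 and 4.99 TPM with miR-126. It was 1.19, 1.90 and 1.56 TPM with miR-150 and 1.86, 1.02 and 1.24 TPM in the control, so miR-126 overlapped both. ID2 averaged 7.50 ± 2.39 TPM with miR-126 and 2.91 ± 1.15 TPM in the control (SD, n = 3 each). The difference of 1.12 (95% interval 0.37 to 1.87) had an adjusted p of 0.088 without the block and 0.045 with it. The differences with miR-143 and miR-150 were 0.48 and 0.10, with adjusted p of 0.54 and 0.91. ID2 with miR-126 was 1.02 above miR-150, with an adjusted p of 0.12, and 0.059 with the block.

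**Figure D4:**
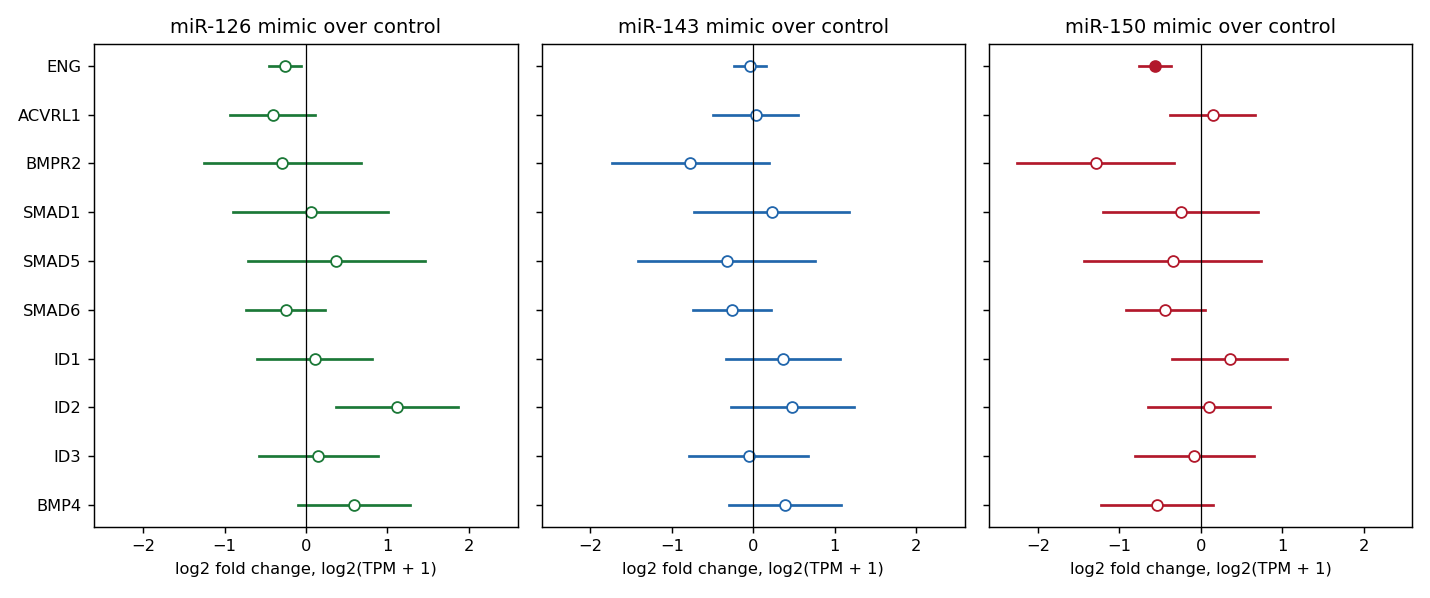
Log2 fold change of each mimic over the control for the 10 genes on the log2(TPM + 1) scale (horizontal axes), as points with 95% intervals, filled where the adjusted p is under 0.05. The filled point is ENG with miR-150, and the widest intervals belong to BMPR2, SMAD1 and SMAD5.

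Counted over the 10 genes, the test called none with miR-126, none with miR-143 and 1 with miR-150 (ENG, lower), where 5.11%, 3.32% and 3.32% of the 13750 tested genes passed in either direction and 2.23% were lower with miR-150. At an unadjusted p under 0.05 the counts were 2, 0 and 2 of the 10, where 19.4%, 16.8% and 17.4% of all tested genes lay under it, so the members were close to or below the background. With the block, 4 members passed for miR-126 against the control, 2 higher (BMP4 and ID2) and 2 lower (ENG and ACVRL1), where 17% of all tested genes passed, 11.8% higher and 5.11% lower. The members' median log2 fold change was 0.08 with miR-126, −0.0032 with miR-143 and −0.30 with miR-150, against 0.10, −0.04 and −0.11 over all tested genes. The 3 comparisons share their control libraries.

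On the summed level, members whose groups did not overlap numbered 3 with miR-126 (ENG and BMPR2 lower, ID2 higher). They numbered 1 with miR-143 (ENG lower) and 2 with miR-150 (ENG and BMPR2 lower). Over all tested genes that share was 34.1% (23.1% higher and 11.1% lower), 25.3% and 21.5%, so the members' shares lie near or below the background. Between mimics, 1 member did not overlap for miR-126 against miR-143 (ENG), 4 for miR-126 against miR-150 (ENG, BMPR2, ID2 and BMP4) and 2 for miR-143 against miR-150 (ENG and BMP4), where the share over all tested genes was 25.4%, 25.9% and 15.1%. Without the block, no member passed for miR-126 against miR-143 (background 2.52%) or miR-126 against miR-150 (background 3.91%), with 1 and 5 members at an unadjusted p under 0.05, where 16% and 21.6% of all tested genes lay under it. For miR-143 against miR-150, 1 passed (background 2.19%). With the block these counts were 1, 3 and 2, where 11%, 18.9% and 9.75% of all tested genes passed. The median gene was itself shifted between the mimics, by 0.15 for miR-126 against miR-143 and by 0.22 for miR-126 against miR-150, while the members' medians were 0.11 and 0.30.

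The levels of 4 members followed the library number. ACVRL1, SMAD1, ID1 and ID3 were lower in all 4 libraries numbered 3 than in all 8 others. ID3 was 168 to 235 TPM in the number 3 libraries, against 294 to 376 TPM in the others, and SMAD1 was 23.9 to 27.4 TPM against 31.5 to 68.8 TPM. ID1 was 63.2 to 91.2 TPM against 94.2 to 149 TPM, and ACVRL1 was 70.9 to 99.0 TPM against 99.97 to 165 TPM. No member was higher in all number 3 libraries. Over all tested genes, 2.90% were lower in this way and 5.61% higher. The labels do not say what the number marks, so this is given as a description with no test.

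Other genes of the pathway were read from lists of 60 ligands, receptors, SMADs, inhibitors and targets, of which 32 passed the filter. The circulating ligands of ALK1, BMP9 (listed as GDF2) and BMP10, were listed at 0 in every library, and BMP6 was the only other ligand tested. BMP6 was 34.3, 11.4 and 36.8 TPM with miR-126, 50.0, 14.8 and 48.7 TPM with miR-143, 29.3, 11.04 and 23.8 TPM with miR-150, and 43.1, 15.9 and 51.1 TPM in the control. With the block it was higher with miR-143 than with miR-150 (0.72, adjusted p = 0.011).

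Without the block, 1 of the 32 rose and 1 fell with miR-126, 1 rose with miR-143, and 1 rose and 1 fell with miR-150. The shares over all tested genes were 5.11%, 3.32% and 3.32%, near those of the list. APLN, which encodes apelin, a peptide that acts on endothelial cells, rose with all 3 mimics. It was 256, 251 and 309 TPM with miR-126, 169.7, 199 and 188 TPM with miR-143, 201, 188 and 208 TPM with miR-150, and 96.2, 127 and 121 TPM in the control. No mimic library overlapped the control, and the rises were 1.24, 0.70 and 0.80, with adjusted p of 0.00039, 0.012 and 0.0058. APLN was also higher with miR-126 than with miR-143 (0.54, adjusted p = 0.047). SMAD9, the other receptor-activated SMAD of the pathway, fell with miR-126: it was 2.90, 2.53 and 2.16 TPM, against 7.54, 8.02 and 7.60 TPM in the control (−1.31, adjusted p = 0.048). NBL1, a secreted BMP antagonist, fell with miR-150: it was 63.0, 72.7 and 70.0 TPM, against 86.7, 93.2 and 91.3 TPM in the control (−0.40, adjusted p = 0.045).

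With the block, 2 of the 32 were higher and 6 lower with miR-126 than in the control, where 11.8% of all tested genes were higher and 5.11% lower. ANGPT2 (angiopoietin-2, a ligand of the receptor TIE2) joined APLN above the control, with 8.08, 20.99 and 10.4 TPM against 1.44, 6.95 and 1.96 TPM (1.77, adjusted p = 0.00035). Below the control were SMAD9, NBL1, the inhibitory SMAD7 (−0.82, adjusted p = 0.0034), the endothelial BMP targets TMEM100 (−0.76, adjusted p = 0.025) and EFNB2, the arterial ephrin B2 (−0.62, adjusted p = 0.035), and EDN1, the vasoconstrictor endothelin-1 (−0.77, adjusted p = 0.0042). SMAD7 was 6.73, 3.80 and 6.04 TPM with miR-126, against 12.6, 7.09 and 12.1 TPM in the control. The inhibitor SMAD7 and the carrier SMAD9 were thus lower with miR-126 while SMAD1 and SMAD5 were not called.

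Between mimics with the block, 4 of the 32 were higher and 4 lower with miR-126 than with miR-143, where 11% of all tested genes passed. The higher ones were APLN, ANGPT2, the coreceptor RGMB (0.82, adjusted p = 0.0044) and the transcription factor ATOH8 (0.9997, adjusted p = 0.0018). The lower ones were SMAD7, SMAD9, the activin antagonist FSTL3 (−0.56, adjusted p = 0.049) and the BMP inhibitor MGP (−0.92, adjusted p = 0.027). Against miR-150, 5 were higher with miR-126 (APLN, ANGPT2, RGMB, ATOH8 and the type I receptor ACVR1) and 1 was lower (TMEM100, −0.80, adjusted p = 0.020), where 18.9% of all tested genes passed. ATOH8 was 22.6, 17.5 and 28.5 TPM with miR-126, 9.14, 9.66 and 13.9 TPM with miR-143, and 9.51, 8.83 and 14.8 TPM with miR-150. Every miR-126 library was above every miR-143 and miR-150 library. In the control ATOH8 was 19.6, 14.3 and 24.3 TPM, which overlaps miR-126. Without the block, ATOH8 differed from the control by 0.23, −0.77 and −0.76 with miR-126, miR-143 and miR-150 (adjusted p = 0.71, 0.16 and 0.15). RGMB differed from it by −0.09, −0.91 and −0.56 (adjusted p = 0.90, 0.059 and 0.23). ACVR1 differed from it by 0.12 with miR-126 and −0.47 with miR-150 (adjusted p = 0.77 and 0.15). With the block, ATOH8 against the control had adjusted p of 0.23, 0.0040 and 0.0049 with miR-126, miR-143 and miR-150. RGMB had 0.68, 0.0021 and 0.021. Both were thus lower than the control with miR-143 and miR-150 in that fit, and not called with miR-126. The numbers of miR-143 and miR-150 did not all pair with those of the control. Without the block none of the 32 passed for miR-126 or miR-143 against miR-150, with 10 and 2 at an unadjusted p under 0.05, where 21.6% and 14.2% of all tested genes lay under it.

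**Figure D5:**
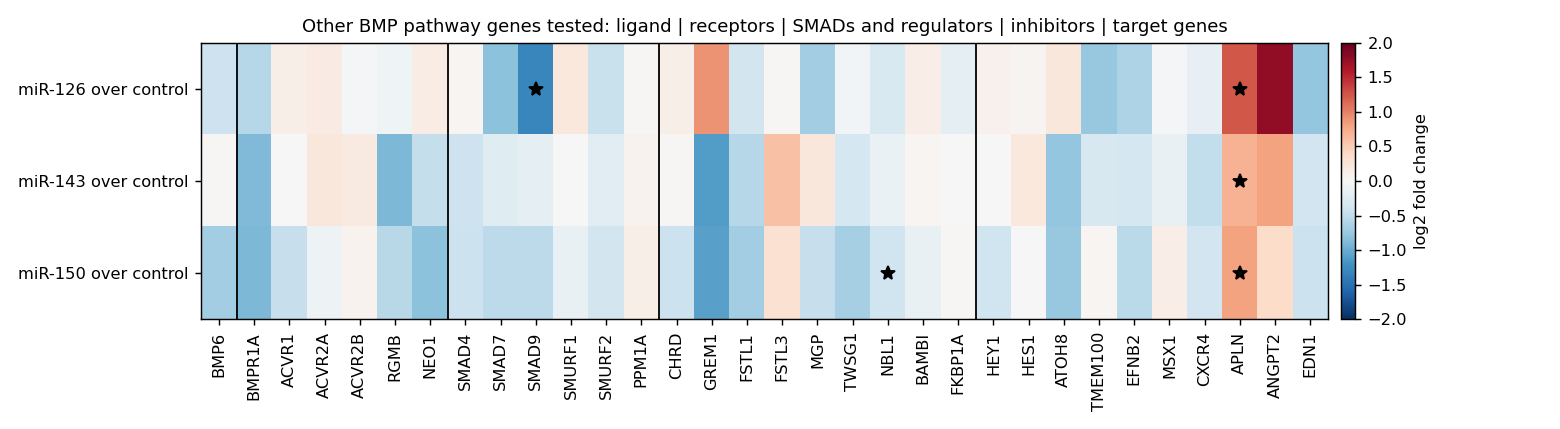
Log2 fold change over the control (colour, red higher and blue lower) of the 32 other BMP pathway genes that were tested, with the mimics in rows and lines between ligand, receptors, SMADs and regulators, inhibitors and target genes. Stars mark an adjusted p under 0.05 without the block, and APLN carries one with all 3 mimics.

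The longest annotated 3' UTR of each member was searched, on the strand of the mRNA, for the complement of the seeds of both miR-126 arms and of miR-143-3p. The 7 letters searched were CGGTACG for miR-126-3p, TAATAAT for miR-126-5p and TCATCTC for miR-143-3p, and no match of a motif in a member overlapped a match of another. CGGTACG was in none of the 10, and in 0.298% of the 3' UTRs of 12429 tested genes. TAATAAT was in 1 member (19.9% of genes), and TCATCTC was in 2 members (14.4% of genes). For BMP4 the longest annotated 3' UTR belongs to BMP4-209, a fragment of 458 bases with 2.68% of the gene's TPM. The 3' UTR of the most abundant protein-coding transcript of each member, which for BMP4 has 296 bases, was therefore searched too. CGGTACG was again in 0, TAATAAT in 1 and TCATCTC in 2 of the 10.

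A match in each of ACVRL1, BMPR2 and SMAD5 is shown with its surroundings (GENCODE 29, GRCh38, plus strand), so that it can be set beside the levels, and the capitals mark the match. The ACVRL1 site lies at chr12:51922998-51923027, the BMPR2 site at chr2:202559786-202559815 and the SMAD5 site at chr5:136181892-136181921. None of these 3 matches is followed by an A, the base opposite the first base of the microRNA in the longest class of sites. The BMPR2 match is placed in the 3' UTR of BMPR2-201, which held 1.58% of the gene's TPM, at base 96 of 8049. The 3' UTR of BMPR2-202, the full receptor, has 7805 bases and the same end, so the match shown lies upstream of it. The 3' UTR of BMPR2-204, the most abundant transcript, also holds 1 match of TCATCTC.
ACVRL1, miR-143-3p: ccagcccacgaaTCATCTCcctcttgaagg
BMPR2, miR-143-3p: cctccacctgggTCATCTCcactgaatcgc
SMAD5, miR-126-5p: gcacatgctataTAATAATtgctagtagca
With miR-143, ACVRL1 differed from the control by 0.03 and BMPR2 by −0.77, and neither passed the test. SMAD5 with miR-126 differed by 0.37. ENG holds none of the 3 motifs in its 3' UTR of 900 bases. The RefSeq set used here held no entry for miR-150, so no miR-150 seed was searched in ENG or in any other member. A match is a run of letters and not a shown site of action.

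The genes whose levels over the 12 libraries were most like that of ENG were FAM133B (Pearson r = 0.97), RANBP9 (0.96) and SPCS2 (0.96), and those most like ID1 were BIRC5 (0.96), EIF3D (0.96) and SMDT1 (0.95). These values were computed on log2(TPM + 1) over 12 libraries that share 4 treatments and 3 numbers, and they are a description with no test.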

How the data were processed

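RNA of HMEC-1 cells was sequenced in 12 libraries, 3 in each of 4 groups. The deposited TPM per transcript were made by the authors with kallisto on GRCh38 (hg38), per the submitters' processing notes, which also name FastQC and sleuth. Tool versions were not given in the sources used here. A table in TPM holds no read counts, so depth per library is unknown and precision rests on the spread between libraries. The labels do not say whether libraries of a group are separate cultures, and p-values then measure the spread of these libraries alone, which may be technical.

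TPM of the 187626 transcripts were summed per symbol, leaving out 171 without a gene. limma 3.58.1 in R 4.3.3 fitted the group to log2(TPM + 1) over all 12 libraries, with a mean-variance trend and a two-sided moderated test. A pseudocount of 1 understates changes of low genes. P-values were adjusted by Benjamini-Hochberg over 13750 genes per comparison (threshold 0.05). Transcript lengths, positions and 3' UTRs came from GENCODE 29, in which 90.55% of the transcripts were found.

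Same-numbered libraries deviated together, as correlations of their residuals (numbers 2, 3 and 4) show. The pairs of miR-126 with the control gave 0.29, 0.63 and 0.40. Those of miR-126 with miR-143 gave 0.32, 0.66 and 0.37, and with miR-150 0.29, 0.55 and 0.28. Those of miR-143 with miR-150 gave 0.59, 0.63 and 0.74. In these comparisons a blocked fit, with the number as a term, is reported where it changes a call. That term was shared by all 12 libraries, also by groups whose numbers did not all pair with those of the control.

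The members and lists were chosen with earlier results of these data known. All 10 members are named in each comparison, as are other pathway genes that passed, and the 3 genes most like ENG and ID1. Blocked fits of miR-143 and miR-150 against the control are the exception: not every pathway gene that passed there is named. Mature microRNA sequences are from RefSeq (GRCh38.p14). Some marker and site results are not reported here.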

Additional observations from a re-analysis of the deposited data

How the results depend on the processing

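Of 660 fold changes computed under alternatives for 39 member differences, 598 kept their direction and side of the threshold, 15 newly passed, 8 no longer passed and 39 had another sign. None of the last was called in either fit. The replicate block raised the members called from 0 to 4 for miR-126 against the control, from 1 to 2 for miR-150 against the control (ENG, and BMP4 at −0.53, adjusted p = 0.029), from 0 to 1 for miR-126 against miR-143, from 0 to 3 for miR-126 against miR-150 and from 1 to 2 for miR-143 against miR-150, and changed no other member's call. For miR-143 and miR-150 against the control the numbers did not pair all libraries (residual correlations 0.044, 0.65 and 0.17, and 0.073, 0.60 and 0.075). With only the libraries of the comparison, the counts were 2 for miR-126 against the control, 0 for miR-150 against the control and 0 for miR-143 against miR-150. Without both libraries that favour short transcripts, 1 member was called for miR-126 against the control. Median centring gave 0 members, and so did the most abundant transcript of each gene alone, both for miR-150 against the control and for miR-143 against miR-150. With each library left out in turn the counts were 0 to 1 for miR-126 against miR-150 and 0 to 1 for miR-143 against miR-150.

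The differences that took another sign had sizes of up to 0.53. For miR-126 against the control, SMAD1 was −0.081 with median centring, −0.037 with quantile normalization, −0.070 with the length trend removed and −0.040 from its main transcript, and ID1 was −0.031 with centring and −0.020 with the length trend removed. Leaving out libraries in turn gave −0.26 to 0.44 for SMAD1, −0.15 to 0.36 for ID1 and −0.10 to 0.36 for ID3. For miR-143 against the control, ENG was 0.014 with centring and 0.041 with the length trend removed, and without both libraries that favour short transcripts ACVRL1 was −0.048 and SMAD5 0.0094. Leaving out libraries gave −0.17 to 0.20 for ACVRL1, −0.091 to 0.61 for SMAD1, −0.56 to 0.0094 for SMAD5 and −0.31 to 0.22 for ID3. For miR-150 against the control, ID3 was 0.052 with centring, BMP4 was 0.52 from its main transcript, and SMAD5 was 0.35 without both libraries that favour short transcripts. Leaving out libraries gave −0.048 to 0.36 for ACVRL1, −0.74 to 0.35 for SMAD5, −0.10 to 0.33 for ID2 and −0.33 to 0.25 for ID3. Between mimics, ENG was 0.075 from its main transcript for miR-126 against miR-143, and ACVRL1 was −0.33 to 0.051 for miR-143 against miR-150 with libraries left out. The cause of these changes was not tested.

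The share of all tested genes called ranged, over the alternatives, from 1.56% to 17% for miR-126, 1.01% to 12.9% for miR-143 and 0.415% to 12.3% for miR-150 against the control. Scaling moved the direction of the calls over all genes: with miR-126 against the control 464 were higher and 238 lower, and 354 and 547 after median centring, and with miR-150 149 were higher and 307 lower, and 245 and 337 after centring. Between miR-126 and miR-150 these counts were 427 and 110, and 224 and 329 after centring, and between miR-126 and miR-143 they were 201 and 145, and 156 and 282. Without read depth, differences of SMAD6 and ID2, at a few TPM, cannot be given a counting error.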
